A study of Mus musculus with 16 samples.

Results

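The genes examined here encode the classical cadherins of the keratinocyte adherens junction, Cdh1 (E-cadherin), Cdh2 (N-cadherin) and Cdh3 (P-cadherin), and the catenins that bind their cytoplasmic tails, Ctnna1 (α-catenin), Ctnnb1 (β-catenin) and Ctnnd1 (p120-catenin). They were taken by symbol from the deposited table of read counts, in which all 6 were found among 14474 genes. RNA sequencing was performed on immortalized mouse keratinocytes (MK cells) in 2 lines. MKα3- cells are null for α3 integrin. In MKα3+ cells human α3 integrin was put back into that null line, so that both carry the null background. Each line, plated on collagen in low-calcium medium, received laminin-332 (LN332), a ligand of integrin α3β1, at 0.02 mg/mL or an equal volume of its vehicle for 16 to 24 h, giving 4 groups of 4 libraries. The libraries carry replicate numbers 1 to 4. Per the study's methods the data points of its cell culture work are replicates of the experiment, but the sample labels do not say whether the libraries came from separate cultures, so p-values measure the spread between these libraries, part of which may be technical. Whether either line is a single clone is not given in the sources used here.

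Classical cadherins join neighbouring cells by binding the same cadherin on the opposite cell through their extracellular domains, in a calcium-dependent manner. β-catenin binds the distal part of the cadherin tail and α-catenin links β-catenin to actin, whereas p120-catenin binds the membrane-proximal part and limits cadherin endocytosis. Basal keratinocytes express E-cadherin and P-cadherin, and N-cadherin is better known from neural and mesenchymal cells and from epithelial cells that have lost junctional organization. β-catenin outside the junction is also the transcriptional co-activator of canonical Wnt signaling, and its abundance there is set mainly by protein degradation.

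The 250 bases before the annotated start of Ctnnb1, the catenin with the largest difference between the lines, are shown because they are the upstream sequence of the one catenin that passed the test. They were taken from RefSeq (GRCm38.p6, chr9:120933150-120933399, plus strand), and capitals mark matches to the GC box (GGGCGG or its reverse complement CCGCCC) and to the CCAAT box (CCAAT or its reverse complement ATTGG), searched on both strands.
Ctnnb1 upstream: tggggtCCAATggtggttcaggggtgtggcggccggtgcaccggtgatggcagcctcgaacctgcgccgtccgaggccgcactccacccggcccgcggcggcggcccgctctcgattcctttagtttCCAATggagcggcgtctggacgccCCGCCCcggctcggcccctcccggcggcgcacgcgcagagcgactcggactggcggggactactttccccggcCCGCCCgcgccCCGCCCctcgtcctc
The 3 GC box matches begin 99, 26 and 15 bases before the start and the 2 CCAAT matches 244 and 123 bases before it, and no match of one motif overlapped the other. Of 32851 upstream windows of the same length, 32.7% held at least 1 GC box and 8.47% at least 3, and 33.9% held at least 1 CCAAT box and 10.1% at least 2. These matches describe the letters of the window and are not binding sites.

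Total counts ranged from 21735708 to 29338370 per library, and the first principal component of log2 CPM (counts scaled to library size, here with TMM, the trimmed mean of M-values), with 56.2% of the variance, separated the lines. All 11 keratinocyte markers looked for were in the table, with summed CPM of 9854 to 21112 per library, whereas the 5 fibroblast markers found (of 8) summed to 11.6 to 40.7 CPM and the 4 endothelial markers to 3.33 to 6.45 CPM. Mouse Itga3, the gene disrupted in the null cells, was counted at 211 to 317 CPM in MKα3- libraries and at 211 to 314 CPM in MKα3+ libraries, so its row does not check the labels, and the human subunit has no row of its own. Simple-epithelium and immune markers differed between the lines, as given with the rescue comparison. MKα3- LN332 replicate 1 had the highest share of ribosomal RNA precursor reads (Rn45s, 1.42% of counts) and MKα3- LN332 replicate 4 the lowest total count.

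Each member was counted with 1820 reads or more in every library, so counting error is small beside the spread between libraries. The position of each gene is from RefSeq on GRCm38 (mm10). Cdh3 lies at chr8:106510852-106556911 on the plus strand and is followed by Cdh1 at chr8:106603350-106670247 on the same strand, with 46.4 kb between them and no other gene of the table in that interval. Cdh2 lies at chr18:16588877-16809246 on the minus strand and Ctnna1 at chr18:35118902-35254776 on the plus strand. Ctnnb1 lies at chr9:120933400-120960507 on the plus strand and Ctnnd1 at chr2:84587096-84658977 on the minus strand. Exons of Ctnna1 overlap Lrrtm2, exons of Ctnnb1 overlap Ulk4 and Mir7090, and exons of Ctnnd1 overlap Gm28635. These overlaps are in the GENCODE annotation, and the annotation used for counting was not examined for them. Where it holds them too, reads from the shared stretches may not be assignable to one gene. Mir7090 and Gm28635 lie on the same strand as the member they overlap. Lrrtm2 and Ulk4 lie on the opposite strand, and no source says whether strand was used in counting. No exon overlap was found for Cdh1, Cdh2 or Cdh3.

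The first comparison asked how the cadherin-catenin genes differed between MKα3+ and MKα3- cells. Cdh2 was higher in MKα3+ cells by 2.13-fold in vehicle and 2.62-fold in LN332, Ctnnb1 by 1.42-fold in vehicle, and Cdh1 by 1.77-fold in LN332. The other differences between the lines did not pass the test, although all 6 genes had positive fold changes in both treatments. Of the 6 genes, 2 passed in vehicle and 2 in LN332, where passing means a Benjamini-Hochberg adjusted p below 0.05 over all genes and an absolute log2 fold change above 0.5 in limma-voom. Over all 14474 genes 18.5% passed in vehicle (10.9% as higher in MKα3+) and 20.6% in LN332 (11.7% as higher), and a count as small as 2 of 6 does not set these genes apart from that background. The median log2 fold change of the 6 genes was 0.36 in vehicle and 0.43 in LN332, beside 0.01 over all genes in both treatments. In bulk RNA, fewer cells expressing a gene and less RNA per cell cannot be told apart.

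**Figure D1:**
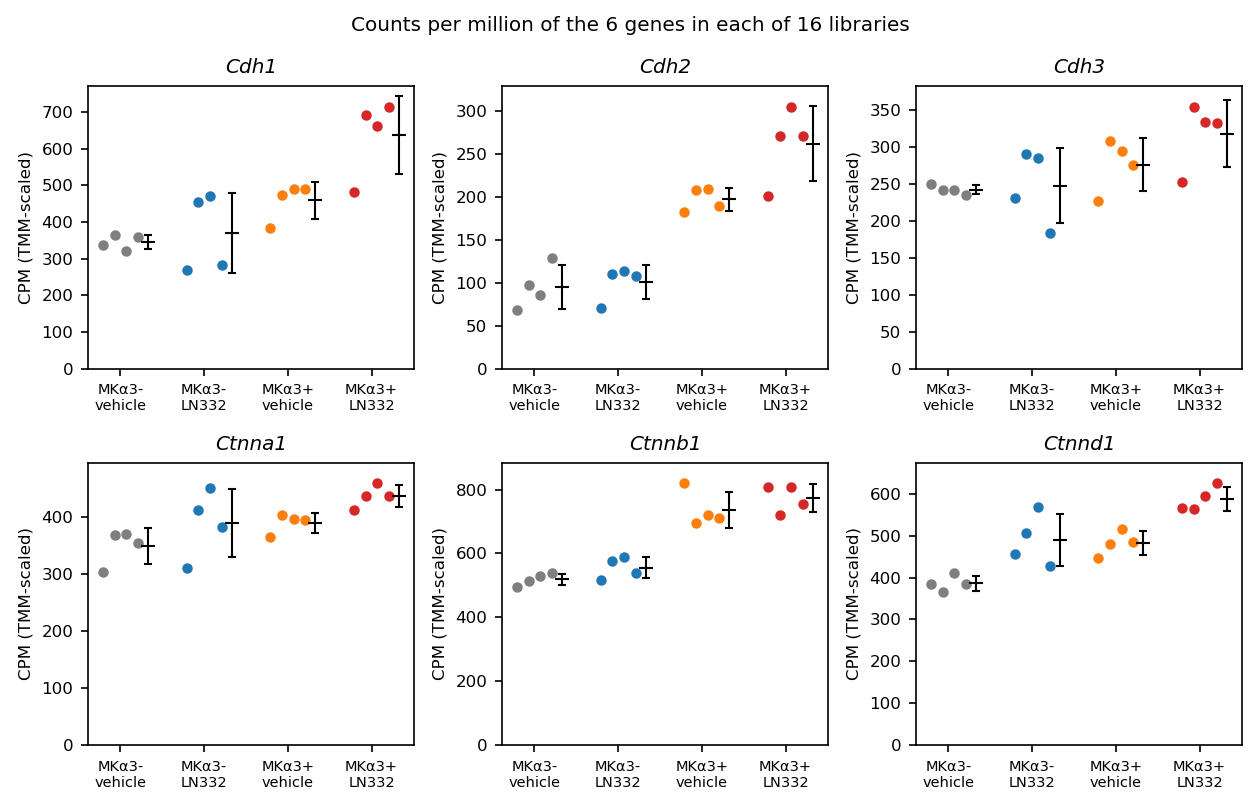
Levels of the 6 genes in each library, in CPM after TMM scaling (y axis from 0), by line and treatment (x axis). Points are the 4 libraries of a group in order of replicate number, and bars are the mean ± SD. Cdh2 libraries of MKα3+ cells, from 182 CPM upward, all lie above those of MKα3- cells, which reach 128 CPM.

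Cdh2 was at 67.8, 97.6, 85.3 and 128 CPM in MKα3- vehicle replicates 1 to 4 and at 182, 207, 209 and 188 CPM in MKα3+ vehicle replicates. With LN332 it was at 70.6, 110, 114 and 108 CPM in MKα3- libraries and at 201, 271, 304 and 270 CPM in MKα3+ libraries. The lines did not overlap in either treatment. Its log2 fold change was 1.09 ± 0.18 (SE, adjusted p = 0.0002, limma-voom) in vehicle and 1.39 ± 0.18 (adjusted p = 1.87e-05, limma-voom) in LN332. Both calls held under each of the 28 alternative analyses that gave a value, with log2 fold changes from 0.94 to 1.25 in vehicle and from 1.21 to 1.51 in LN332.

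Ctnnb1 was at 496, 513, 528 and 538 CPM in MKα3- vehicle libraries and at 819, 697, 722 and 710 CPM in MKα3+ vehicle libraries. In LN332 the values were 517, 575, 590 and 539 CPM in MKα3- and 809, 721, 809 and 755 CPM in MKα3+ libraries. Every MKα3+ library lay above every MKα3- library of the same treatment. The log2 fold change was 0.50 ± 0.08 in vehicle (adjusted p = 0.000229, limma-voom) and 0.48 ± 0.08 in LN332 (adjusted p = 0.000325, limma-voom). Both differences passed the adjusted p, and it is the minimum fold change of 0.5 that separates them, with the vehicle value just above it and the LN332 value just under it. The vehicle call was lost in 18 of 28 alternatives, in which the fold change stayed between 0.43 and 0.50 and the adjusted p at or below 0.00118. Leaving out any of the 8 LN332 libraries moved it to 0.50 with the call lost. In all 8 cases the library that TMM takes as its reference also changed, from MKα3- LN332 replicate 2 to MKα3+ vehicle replicate 3, and its part in the result was not tested. It was also lost without MKα3- vehicle replicate 1 (0.48), MKα3- vehicle replicate 2 (0.50) or MKα3+ vehicle replicate 1 (0.45), and the LN332 call appeared without MKα3+ LN332 replicate 2 (0.51).

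Cdh1, the main cadherin of epithelial junctions, was at 337, 363, 320 and 359 CPM in MKα3- vehicle libraries and at 382, 474, 489 and 489 CPM in MKα3+ vehicle libraries. All 4 MKα3+ libraries lay above the MKα3- libraries, yet the difference did not pass, at a log2 fold change of 0.41 ± 0.17 (adjusted p = 0.0898, limma-voom). In LN332 the MKα3- libraries were at 269, 455, 471 and 282 CPM and the MKα3+ libraries at 481, 691, 662 and 714 CPM. MKα3- LN332 replicates 1 and 4 were the low pair, and replicate 1 was the low library of both MKα3+ groups. The LN332 log2 fold change was 0.82 ± 0.18 (adjusted p = 0.00166, limma-voom). Without the low pair, a choice made after the data were seen, it was 0.44 (adjusted p = 0.0356, limma-voom) and fell under the minimum fold change. Leaving out single libraries gave 0.69 to 0.95 with the call kept.

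Cdh3, the cadherin enriched in basal keratinocytes and hair follicle matrix, was at 250, 242, 242 and 235 CPM in MKα3- vehicle libraries and at 227, 308, 294 and 276 CPM in MKα3+ vehicle libraries. In LN332 it was at 231, 290, 286 and 183 CPM in MKα3- and at 252, 354, 334 and 333 CPM in MKα3+ libraries. The lines overlapped in both treatments. Its log2 fold change was 0.18 ± 0.14 (adjusted p = 0.37, limma-voom) in vehicle and 0.38 ± 0.14 (adjusted p = 0.0499, limma-voom) in LN332, under the minimum in both.

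Ctnna1 was at 304, 369, 371 and 355 CPM in MKα3- vehicle libraries and at 365, 404, 398 and 395 CPM in MKα3+ vehicle libraries. In LN332 it was at 310, 412, 452 and 384 CPM in MKα3- and at 413, 438, 459 and 438 CPM in MKα3+ libraries. The libraries of the lines overlapped, with log2 fold changes of 0.16 ± 0.11 (adjusted p = 0.276, limma-voom) in vehicle and 0.18 ± 0.11 (adjusted p = 0.208, limma-voom) in LN332. The 95% intervals, from -0.06 to 0.38 and from -0.04 to 0.40, leave room for a modest difference in either treatment.

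Ctnnd1 was at 384, 367, 411 and 386 CPM in MKα3- vehicle libraries and at 447, 480, 517 and 485 CPM in MKα3+ vehicle libraries, which did not overlap. In LN332 it was at 455, 508, 568 and 427 CPM in MKα3- and at 566, 563, 595 and 625 CPM in MKα3+ libraries, which overlapped only through MKα3- replicate 3. The log2 fold change was 0.32 ± 0.09 (adjusted p = 0.0162, limma-voom) in vehicle and 0.27 ± 0.09 (adjusted p = 0.0349, limma-voom) in LN332. Both passed the adjusted p and lay under the minimum fold change. In neither treatment did the adjusted p stay below 0.05 under every alternative analysis.

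**Figure D2:**
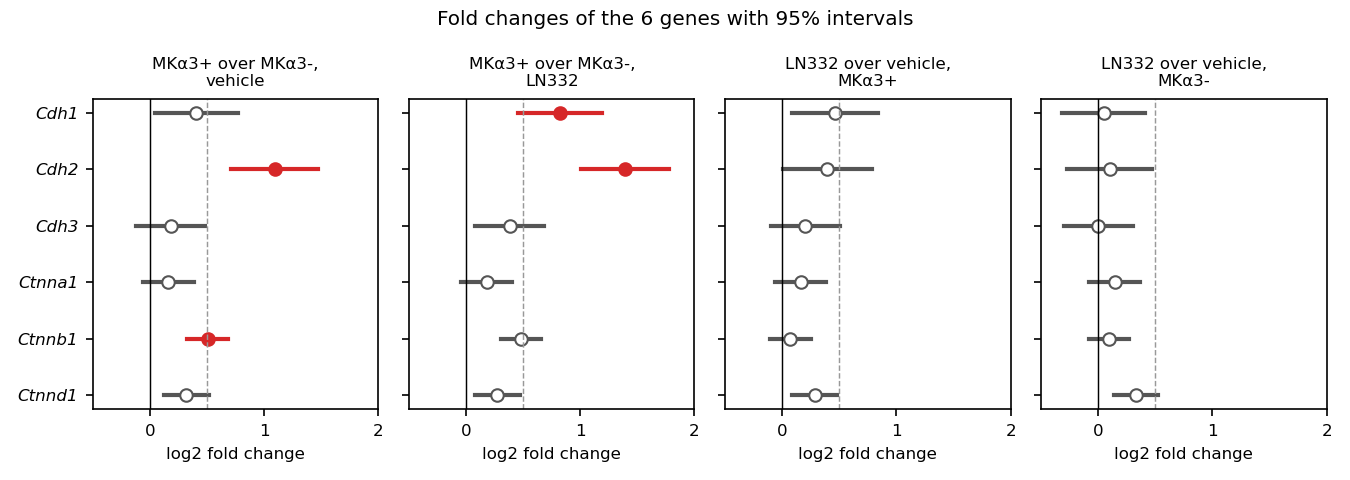
Log2 fold changes of the 6 genes with 95% intervals (x axis) in the 4 pairwise comparisons. Filled red points passed the adjusted p and the minimum fold change, which the dashed line marks at 0.5, and the black line marks 0. The points that passed are Cdh2 and Ctnnb1 in vehicle and Cdh1 and Cdh2 in LN332.

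The next comparison asked whether LN332 altered these genes within each line. None of the 6 genes passed in either line, where 0.187% of all genes passed in MKα3+ cells and 0.304% in MKα3- cells. At an unadjusted p below 0.05 were 3 of 6 genes in MKα3+ and 1 of 6 in MKα3- cells. Of all 14474 genes, 1388 were below it in MKα3+ and 2023 in MKα3- cells. The programs edgeR and DESeq2 also called 0 of the 6 genes. The largest log2 fold changes in MKα3+ cells were 0.46 ± 0.18 for Cdh1 (adjusted p = 0.366, limma-voom), 0.40 ± 0.19 for Cdh2 (adjusted p = 0.513, limma-voom) and 0.28 ± 0.09 for Ctnnd1 (adjusted p = 0.271, limma-voom). Libraries of the treatments overlapped for Cdh1, Cdh2, Cdh3 and Ctnnb1 but not for Ctnnd1 or Ctnna1. The share of all genes without overlap was not computed, here or between the lines, so it does not set these genes apart.

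Within MKα3+ cells the libraries that share a replicate number also deviated together from their group means in all 4 pairs, so the comparison was repeated with the number as a block. Cdh1, Cdh2, Cdh3, Ctnna1 and Ctnnd1 were higher with LN332 in 4 of 4 pairs and Ctnnb1 in 3 of 4. The share of all genes higher in 4 of 4 pairs was not computed, so these directions do not set the 6 genes apart. With the block over all 16 libraries 1.51% of genes passed, 0 of the 6 among them, and the lowest adjusted p of a member was 0.0584 for Ctnnd1 (limma-voom), where 3.37% of all genes passed the adjusted p alone and 0 of the 6. With the block in the MKα3+ groups alone, chosen after the data were seen, 3.63% of genes passed and again 0 of the 6 genes, all of which stayed under the minimum fold change. In that fit 5 of the 6 genes passed the adjusted p, as did 21.2% of all genes, with log2 fold changes of 0.47 ± 0.04 for Cdh1 (adjusted p = 3.81e-05, limma-voom), 0.40 ± 0.06 for Cdh2 (adjusted p = 0.000948, limma-voom), 0.29 ± 0.04 for Ctnnd1 (adjusted p = 0.000484, limma-voom), 0.20 ± 0.04 for Cdh3 (adjusted p = 0.00305, limma-voom) and 0.16 ± 0.03 for Ctnna1 (adjusted p = 0.00622, limma-voom). The fold changes were close to those without the block. The fit in which 5 genes passed the adjusted p differed from the unblocked one in both the block and the libraries fitted. The parts of the pairing and of the libraries fitted were not separated. No fit with the block was made in the MKα3- groups alone, so these values have no counterpart in that line.

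In MKα3- cells Ctnnd1 had the largest value, 0.33 ± 0.09 (adjusted p = 0.138, limma-voom), again with no overlap of libraries, and the remaining 5 genes lay between 0.00 and 0.14. The adjusted p of Ctnnd1 did not stay above 0.05 under every alternative analysis, though none called it. The Cdh1 value in MKα3- cells, 0.05 ± 0.17, depended on the libraries and settings used and ran from -0.08 to 0.42 over the alternatives. Averaged over both lines, where 1.35% of genes passed, Ctnnd1 had a log2 fold change of 0.31 ± 0.07 (adjusted p = 0.015, limma-voom), which passed the adjusted p and lay under the minimum fold change. The difference of the LN332 response between the lines did not pass for any of the 6 genes, and 0% of all genes passed. At an unadjusted p below 0.05 were 0 of the 6 and 164 of all 14474 genes, and edgeR and DESeq2 gave 0 calls. For Cdh1 the difference of the response was 0.42 ± 0.25, with a 95% interval from -0.10 to 0.94. A larger response in MKα3+ cells and an equal one both lie inside that interval. Over the alternative analyses the difference for Cdh1 ran from 0.04 to 0.55.

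Levels of different genes were compared per length, as TMM-scaled CPM divided by the union exon length in kilobases (RPKM). In MKα3- vehicle cells the order was Ctnnb1 (99.9 ± 3.53 RPKM, SD, n = 4), Cdh1 (75.4 ± 4.37 RPKM), Cdh3 (55.2 ± 1.42 RPKM), Ctnna1 (54.4 ± 4.85 RPKM), Ctnnd1 (52.9 ± 2.47 RPKM) and Cdh2 (11.7 ± 3.15 RPKM). Cdh3, Ctnna1 and Ctnnd1 overlapped with their neighbours in that order, and the steps to Ctnnb1, Cdh1 and Cdh2 did not. In MKα3+ vehicle cells Ctnnb1 stood at 141.9 ± 10.8 RPKM, Cdh1 at 100.3 ± 11.2 RPKM and Cdh2 at 24.4 ± 1.65 RPKM, with the other 3 genes between 60.7 and 65.9 RPKM and overlapping. In both LN332 groups the libraries of Ctnnb1 and Cdh1 overlapped. Cdh2 remained the lowest of the 6 genes in all 4 groups. With the longest transcript in place of the union of exons the order of the middle genes shifted, Ctnna1 moving to second place in 3 of 4 groups, so that ranks other than first and last depend on the length used.

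The balance among the 3 cadherins was compared as the share of each in their summed RPKM, as a description without a test. Cdh2 made up 8.20% ± 1.93 (SD, n = 4) of the sum in MKα3- vehicle and 13.1% ± 0.93 in MKα3+ vehicle cells, and 8.51% ± 1.95 and 13.3% ± 0.91 in LN332. Libraries ran from 6.04% to 11.4% in MKα3- and from 12.1% to 14.6% in MKα3+ cells, without overlap. With the longest transcript as the length the Cdh2 share was 12.7% and 19.7% in MKα3- and MKα3+ vehicle cells and 13.2% and 19.98% in LN332, so the size of the share depends on the length used, and the lines again did not overlap. Cdh1 held 52.9% ± 1.07, 53.4% ± 3.40, 53.4% ± 1.45 and 56.9% ± 1.30 in MKα3- vehicle, MKα3- LN332, MKα3+ vehicle and MKα3+ LN332 cells. Cdh3 correspondingly held 38.9% ± 2.35, 38.1% ± 3.90, 33.5% ± 1.22 and 29.8% ± 0.95. The ratio of Cdh1 to Cdh3 per length, 2 genes that are adjacent on the chromosome, was 1.37 ± 0.10, 1.42 ± 0.21, 1.60 ± 0.09 and 1.91 ± 0.10 in that order of groups. Its MKα3+ LN332 libraries, from 1.83 to 2.06, lay above all others, the highest of which was 1.70. The sum of the 3 catenins over the sum of the 3 cadherins was 1.46 ± 0.09, 1.61 ± 0.25, 1.45 ± 0.20 and 1.24 ± 0.23, with overlapping libraries in each comparison. Between same-numbered MKα3+ libraries the ratio of catenins to cadherins was lower with LN332 in 4 of 4 pairs. The sum of the cadherins and the sum of the catenins were each higher with LN332 in 4 of 4 pairs, so the lower ratio is not a fall of the catenins.

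**Figure D3:**
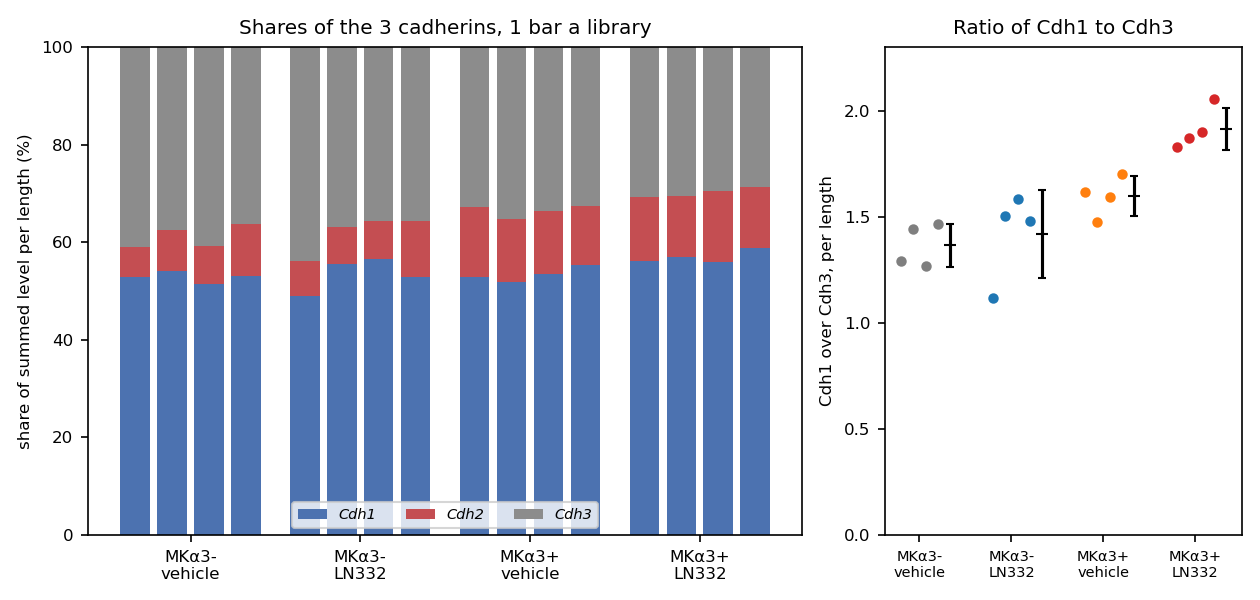
Left, share of Cdh1, Cdh2 and Cdh3 in their summed level per exon length (%), 1 bar for each library in order of replicate number within a group. Right, ratio of Cdh1 to Cdh3 per length with the mean ± SD (n = 4). Cdh2 shares are 12.1% or more in every MKα3+ library and at most 11.4% in every MKα3- library.

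The 3 genes most like each member that passed between the lines were found by the smallest root mean square distance of log2 CPM, each gene centred on its own mean, over the 16 libraries, among 11644 genes whose log2 CPM averaged 1 or more. For Cdh1 they were Atf6, Shroom2 and Specc1, each at a distance of 0.13, beside a spread of Cdh1 around its own mean of 0.42. For Cdh2 they were Nexmif (0.19), Celf2 (0.19) and Opn3 (0.20), beside a spread of 0.68. For Ctnnb1 they were Lrrc1 (0.086), Ezh2 (0.10) and Mgme1 (0.10), beside a spread of 0.26. The 16 libraries fall into 2 lines, so these distances mostly describe the difference between the lines.

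The genes next to the Cdh3–Cdh1 locus were examined for comparison. Toward lower coordinates lie Prmt7, Smpd3 and Zfp90, and toward higher coordinates Tango6, Has3 and Chtf8. Of these 6 genes, 0 passed between the lines in vehicle by limma-voom, beside 18.5% of all genes, with log2 fold changes from 0.03 for Has3 to 0.39 for Smpd3. In LN332 1 passed, beside 20.6% of all genes, Tango6 at 0.59 ± 0.14 (adjusted p = 0.004, limma-voom). Smpd3, a sphingomyelinase gene, passed with LN332 averaged over both lines at -0.85 (adjusted p = 0.0392, limma-voom). It is near the floor, with group means of 1.17 to 2.54 CPM, and its exons overlap Prmt7 on the opposite strand. The median log2 fold change of the 6 genes was 0.26 in both treatments, beside 0.01 over all genes.

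Genes around the cadherin-catenin complex were taken from 5 lists, whose counts are given as descriptions beside the share of all genes that passed. Of the other cadherins and protocadherins, 24 of 42 were in the table, and 5 passed as higher and 3 as lower in MKα3+ vehicle cells, 33.3% of those in the table beside 18.5% of all genes. Pcdh19, a δ-protocadherin, rose from 0.97 ± 0.64 to 29.6 ± 6.42 CPM (log2 fold change 5.15, adjusted p = 2.28e-06, limma-voom). Fat2, one of the giant Fat cadherins, fell from 139 ± 57.7 to 32.6 ± 15.2 CPM (-2.22, adjusted p = 0.00177, limma-voom). Pcdh1 fell from 13.7 ± 4.04 to 2.72 ± 0.79 CPM (-2.32, adjusted p = 0.000734, limma-voom), and Cdh24 rose by 0.51 (adjusted p = 0.0324, limma-voom).

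Among adherens junction partners, with 36 of 39 in the table, 7 passed as higher and 1 as lower in vehicle, and the list's median log2 fold change was 0.25. That is 22.2% of those in the table, close to the 18.5% of all genes, so the count does not set the list apart. The 5 with the largest fold changes, among those averaging a log2 CPM of 1 or more, were Evl (0.99), an actin polymerization factor, Camsap3 (0.90), which binds microtubule minus ends, Ctnnal1 (0.87), an α-catenin relative, Nectin3 (0.79), a nectin adhesion receptor, and Tjp1 (0.65), the ZO-1 scaffold. Jup, plakoglobin, the catenin that can take the place of β-catenin in the junction, was at 935 ± 110 CPM in MKα3- and 857 ± 94.2 CPM in MKα3+ vehicle cells (log2 fold change -0.12, adjusted p = 0.548, limma-voom). Zyx, the focal adhesion protein zyxin, passed with LN332 averaged over both lines, at 0.51 (adjusted p = 0.039, limma-voom).

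Of β-catenin turnover genes and TCF factors, 28 of 30 were in the table and 2 passed (7.14%), below the share of all genes. Tle1 (0.86), a co-repressor, rose while Axin2 (-0.82), a scaffold of the destruction complex and itself a Wnt target, fell. The median of this list was 0.04. Wnt target genes, 12 of 18 in the table, gave 2 higher and 1 lower gene (25.0%), with Ccn4 rising from 15.7 ± 8.14 to 45.7 ± 0.39 CPM (1.67, adjusted p = 0.000181, limma-voom) and Axin2, which stands in both lists, falling. With LN332 averaged over both lines Myc (0.52), Ccn4 (0.88) and Tcf7 (-0.70) passed, of which Tcf7 is near the floor, with group means of 1.43 to 2.91 CPM.

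Of the transcription factors known to repress Cdh1, 10 of 12 were in the table, and 4 passed as higher and 2 as lower in MKα3+ vehicle cells. That is 60.0% of those in the table, beside 18.5% of all genes. The list is short and includes genes near the floor in MKα3- cells, so this share is not read as a result either. Klf8, which lies under the mean level that the naming rule asks for and is named after its values were seen, had the largest change of the list, from 0.47 ± 0.25 to 6.41 ± 1.01 CPM in vehicle (3.97, adjusted p = 7.33e-06, limma-voom), and in LN332 it differed by 4.71. Twist2 fell from 25.2 ± 2.78 to 5.38 ± 0.75 CPM (-2.23, adjusted p = 1.46e-08, limma-voom), and Snai2 fell from 37.6 ± 8.09 to 19.1 ± 1.71 CPM (-0.96, adjusted p = 0.00123, limma-voom). Snai3 (1.55), Zeb2 (1.23) and Twist1 (0.94) rose, from 3.21, 1.50 and 5.26 CPM to 7.71, 3.73 and 10.0 CPM. The repressors did not move one way, with 4 genes higher and 2 lower. In LN332 the numbers that passed as higher and lower were 5 and 2 for the other cadherins, 9 and 3 for junction partners, 3 and 1 for turnover genes, 1 and 1 for Wnt targets and 3 and 2 for the repressors. As shares of those in the table these were 29.2%, 33.3%, 14.3%, 16.7% and 50.0%, beside 20.6% of all genes. Within either line LN332 gave 0 calls in these 5 lists by limma-voom without the replicate block. In MKα3+ cells the block gave 1 call, Myc, over all libraries and 8 in the MKα3+ groups alone.

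**Figure D4:**
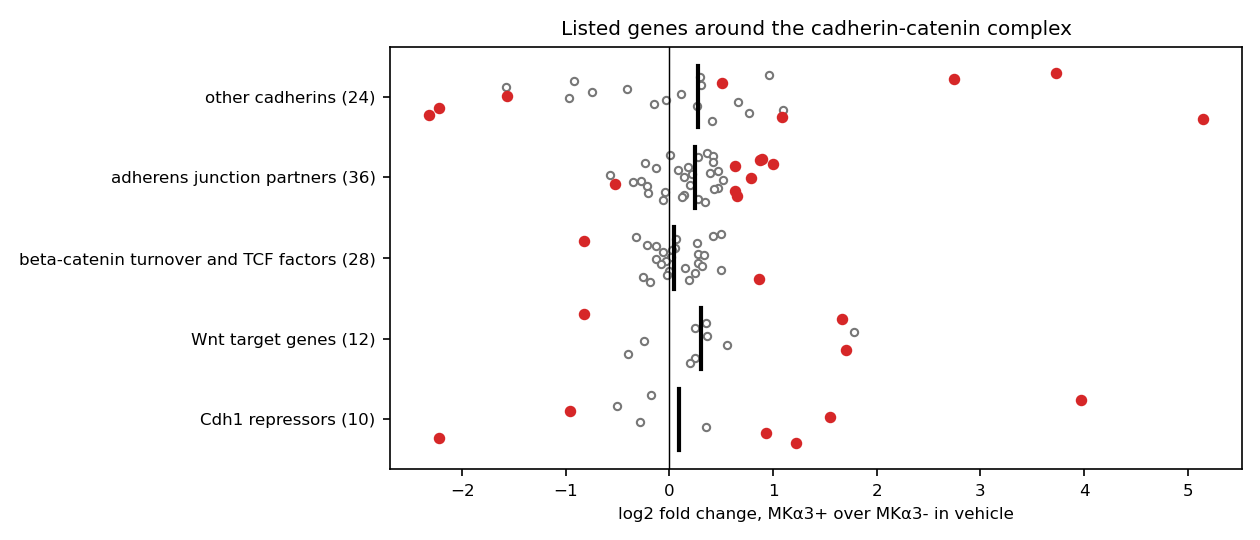
Log2 fold change of MKα3+ over MKα3- in vehicle (x axis) for the genes of 5 lists, with the number of genes in the table in parentheses. Red points passed the adjusted p and the minimum fold change, and the black bar is the median of the list. Pcdh19 at 5.15 is the highest point and Pcdh1 at -2.32 the lowest.

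Markers of other cell types differed between the lines beside these results, and their part in them was not tested. Of the 5 simple-epithelium markers 3 passed as higher in MKα3+ vehicle cells, Krt7 (0.81), Krt8 (1.23) and Krt19 (5.87), and the list summed to 2216 to 2890 CPM in MKα3- and 4421 to 4842 CPM in MKα3+ vehicle libraries. In LN332 it summed to 2824 to 3528 and 5200 to 5915 CPM. Krt8 also passed with LN332 within MKα3- cells, at 0.55 (adjusted p = 0.0327, limma-voom). Of 4 immune markers in the table (of 5) Lyz2 passed in vehicle, and the list summed to 27.9 to 76.2 CPM in MKα3- and 83.8 to 306 CPM in MKα3+ vehicle libraries. With LN332 the sums were 20.8 to 82.3 and 27.2 to 297 CPM. Of the 11 keratinocyte markers 1 passed as higher in vehicle, Krt17 (0.78), and 2 as lower, Perp (-0.70) and Krt15 (-2.64), the last named after its values were seen. In LN332 1 passed as higher, Krt17 (0.71), and 3 as lower, Perp (-0.78), Krt5 (-0.80) and Trp63 (-0.91), of which Krt5, a basal keratin, and Trp63, the p63 regulator of basal cells, were named after their values were seen. In both treatments 9 of the 11 had negative fold changes, with medians of -0.54 in vehicle and -0.46 in LN332 beside 0.01 over all genes. Of 6 melanocyte markers 2 were in the table and 1 passed as lower, Pmel (-1.26), and of the fibroblast and endothelial markers 0 passed by limma-voom.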

How the data were processed

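The deposited table holds read counts per gene for 16 libraries. Per the study's methods, the authors aligned reads to mm10 with Rsubread, assigned them to Entrez genes with the annotation that featureCounts carries, with no strand setting stated, and kept genes above 0.5 CPM in at least 3 samples. The program bcl2fastq 2.20 is named in the submitters' processing notes. The file held 14474 genes, and that filter removed 0 of them. Groups came from the sample labels.

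The counts were scaled by TMM and fitted with limma-voom over all 16 libraries and 4 groups (limma 3.58.1, edgeR 4.0.16, R 4.3.3). A gene passed when its Benjamini-Hochberg adjusted p was below 0.05 and its log2 fold change was above 0.5 in size. Replicate pairs differed beyond sampling noise (chi-square per degree of freedom of at least 5.45 over 24 pairs), so each library was kept as 1 sample. Deviations from the group means correlated above 0.1 in all 4 same-numbered pairs of MKα3+ LN332 and vehicle libraries (0.202 to 0.62), and in 3 of 4 pairs in each of the other comparisons. The numbers were therefore taken to pair the samples in that comparison alone, from the data, since no label says what they mark. Lengths and exon overlaps came from GENCODE, with 96.8% of genes matched, and positions and the upstream sequence from RefSeq.

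The 6 genes, the gene lists and the marker lists were chosen with earlier results of these data known. Named were the 6 genes, up to 5 genes a list with the largest vehicle rescue fold change at a mean log2 CPM of at least 1, every listed gene past the threshold with LN332, the 3 nearest genes of each member that passed, and the locus neighbours. Jup was added for its role. 1 further gene list is not reported here. Alternatives were edgeR quasi-likelihood, DESeq2 1.42.0, DESeq2 size factors, library size alone, other filters and fold minimums, quality weights, the groups compared alone, a replicate block and leaving out libraries.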

Additional observations from a re-analysis of the deposited data

Results flagged for a closer look

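Within groups of 4 libraries, 1 library stood apart from the other 3 in 6 of 40 groups examined over the 6 genes, the cadherin shares and the catenin-to-cadherin ratio, where chance gives about 2. Cdh1 was at 382.2 CPM in MKα3+ vehicle replicate 1, beside 473.8 to 489.4 CPM in the others. Cdh2 was at 70.62 CPM in MKα3- LN332 replicate 1, beside 107.6 to 113.9 CPM. The catenin-to-cadherin ratio was 1.587 in MKα3- vehicle, beside 1.404 to 1.43, and 1.746 in MKα3+ vehicle, beside 1.316 to 1.368. In MKα3- LN332 cells the share of Cdh2 was 11.43% in 1 library, beside 7.275% to 7.745%, and the share of Cdh3 was 43.85% in another, beside 35.73% to 36.93%. These measures share libraries and genes, so the flags are not independent.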

How the results depend on the processing

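Cdh2 passed between the lines, in vehicle and in LN332, under every alternative run. The count of members that passed in vehicle was 2 and became 1, with the log2 fold change of Ctnnb1 under 0.5, by DESeq2 (0.4979), DESeq2 size factors (0.4951), library size alone (0.4903), quality weights (0.4568), only the groups compared (0.499), without the first replicate of every group (0.4293) and without MKα3- LN332 replicates 1 and 4 (0.4981), the last pair of settings chosen after the data were seen. A minimum log2 fold change of 1 left 1 member in vehicle and 1 in LN332, beside 1362 and 1345 of all 14474 genes. With no minimum 5 members passed in LN332, beside 4654 of all 14474 genes. In that setting 1 member passed with LN332 averaged over the lines, where at most 637 of all genes passed under any alternative. Of those 5, Cdh3 and Ctnnd1 did not keep an adjusted p below 0.05 in LN332 under every alternative. Without MKα3- LN332 replicates 1 and 4 the LN332 count was 1, with Cdh1 at 0.4447. Leaving out single libraries gave 1 to 2 members in vehicle, and Ctnnb1 values of 0.4519 to 0.5298 in vehicle and 0.4449 to 0.5068 in LN332.

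Values near 0 changed sign. For LN332 in MKα3- cells, Cdh1 was -0.0313 and Cdh3 -0.0745 by library size alone, and Cdh3 was -0.0008 by DESeq2 size factors and -0.0005 with at least 10 counts in every library. Leaving out single libraries gave -0.0849 to 0.1733 for Cdh1, -0.0485 to 0.2569 for Cdh2 and -0.0851 to 0.1408 for Cdh3. For LN332 in MKα3+ cells Ctnnb1 was -0.0062 by library size alone. The difference of the LN332 response was -0.0414 for Cdh3 and -0.1365 for Ctnna1 without MKα3- LN332 replicates 1 and 4, and for Ctnna1 -0.0158 with quality weights and -0.0207 without the first replicates. Leaving out single libraries gave -0.0806 to 0.0902 for Ctnna1, -0.0531 to 0.0272 for Ctnnb1 and -0.1099 to 0.0252 for Ctnnd1. The cause was not tested.

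The replicate block over all libraries left the members' counts at 2 and 2 between the lines and 0 with LN332, and it changed no call of a member. It gave 1 listed gene with LN332 in MKα3+ cells (8 in the MKα3+ groups alone) and 3 in MKα3- cells, where DESeq2 gave 1 and 3 and quality weights 6 and 3, beside 0 and 0 by limma-voom. Listed genes with LN332 averaged over the lines numbered 2 by library size alone, beside 4. Over all genes, LN332 in MKα3+ cells gave 27 calls, from 0 to 516 over the alternatives, LN332 in MKα3- cells gave 44, from 1 to 259, the average gave 196, from 13 to 637, and the line comparisons gave 2676 in vehicle, from 1362 to 4115, and 2987 in LN332, from 1345 to 4654. Longest-transcript lengths moved 16 of 24 per-length levels by more than 1 SD, and library size alone moved 1.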
